A study of Mus musculus with 10 samples.

Results

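The mitotic genes described here are 30 genes that act between the end of DNA replication and the separation of daughter cells. They were chosen by name, as all array probes whose transcript belongs to a gene of the list. Of the 56605 probes on the array, 46 met that rule. The list of 30 and the gene lists compared with it were drawn up with earlier results of these data known. Their shares given beside those of all genes therefore describe the lists and are not an independent test. Every one of the 30 genes had a probe well above background on all 10 arrays, so none was lost to the filter on dim probes. Of the 30 genes, 17 had 1 probe and 13 had several, and the brightest probe stood for the gene. The genes tested numbered 22012 in all.

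RNA came from mouse bone marrow cells that had received BCR-ABL, the fusion tyrosine kinase of chronic myeloid leukaemia, by retrovirus. The donor mice were 6 weeks old, the cells were plated 24 hours after transduction in methylcellulose without growth factors, and single colonies were taken for RNA on day 10. The Cdk6-/- group lacked CDK6, a cyclin D-dependent kinase of G1 phase that also acts in transcription, and the Cdk6-K43M group carried a CDK6 whose kinase activity is lost through exchange of the catalytic lysine. The control was Cdk6+/+ RNA, and all groups, the control included, were BCR-ABL+ colonies. Each group had 4 samples. The 4 wild-type RNAs were hybridised only as 1 pool, in Cy3, against each of the 8 single mutant samples in Cy5. For each mutant genotype 1 more array had the dyes exchanged, with its 4 RNAs pooled in the Cy3 channel against the wild-type pool in the other. The sources used here do not give the number of mice, cultures or colonies behind a sample, so the p-values measure only the spread between these samples, which may be technical. Variation among the wild-type RNAs inside the pool does not enter any comparison with it.

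Cells enter mitosis when CDK1, bound to B-type cyclins, is switched on, and they leave it when the anaphase-promoting complex has these cyclins degraded. Transcripts of the mitotic proteins accumulate in G2 phase, under the MuvB complex with B-MYB and the forkhead factor FOXM1, and are held down in G0 and G1 phase when MuvB joins the DREAM complex. MuvB contacts DNA at the cell cycle genes homology region, or CHR, and the trimeric factor NF-Y binds CCAAT boxes that often lie nearby. In a growing population the level of such transcripts also follows the share of cells in G2 and M phase. In bulk RNA fewer cells of a kind and less RNA per cell cannot be told apart.

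Promoter sequences were examined because these elements are what the mitotic genes are known to share. RefSeq promoters of the GRCm38.p6 assembly were found for 24 of the 30 genes, and Foxm1, Ccna2, Tpx2, Aurkb, Kif20a and Cdc25c were not matched. The 250 bases before the start were searched on both strands for the CHR in its forms TTTGAA and TTCGAA and for CCAAT. A CHR form was present in 10 of the 24 genes (41.7%) and in 19.6% of the 27025 genes with a promoter of the same length. CCAAT was present in 19 of the 24 (79.2%) against 37.5% of all genes, and both elements in 9 (37.5%) against 7.0%. Of 108 matched genes among the other mitotic genes, described after the list of 30, 35.2% had a CHR form, 56.5% CCAAT and 24.1% both. Of 30 matched genes of DNA replication and the G1/S step, 6 had a CHR form (20%), 18 CCAAT (60%) and 5 both (16.7%). A match of letters is a description of the window and not a measured binding site.

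Stretches of 5 promoters are shown, with the CHR and CCAAT letters in capitals on whichever strand they lie (TTCAAA and ATTGG are the opposite strand). Prc1 (chr7:80294394-80294451, plus strand), Mki67 (chr7:135716380-135716587, minus strand) and Top2a (chr11:99024190-99024436, minus strand) hold a CHR and fell in at least 1 genotype. Nek2 (chr1:191821427-191821472, plus strand), the gene of the 30 with the largest decrease in both genotypes, has 1 CCAAT box and no CHR form. Cdk1 (chr10:69352913-69353140, minus strand) has 2 CHR forms and passed no test. Nek2 and Cdk1 were added to the display after their values were seen.
Prc1: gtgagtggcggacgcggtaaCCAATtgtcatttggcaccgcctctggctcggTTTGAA
Mki67: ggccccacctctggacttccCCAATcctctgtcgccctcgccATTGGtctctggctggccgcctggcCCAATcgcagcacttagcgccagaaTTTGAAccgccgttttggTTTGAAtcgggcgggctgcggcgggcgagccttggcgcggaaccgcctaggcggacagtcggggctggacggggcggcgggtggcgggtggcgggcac
Top2a: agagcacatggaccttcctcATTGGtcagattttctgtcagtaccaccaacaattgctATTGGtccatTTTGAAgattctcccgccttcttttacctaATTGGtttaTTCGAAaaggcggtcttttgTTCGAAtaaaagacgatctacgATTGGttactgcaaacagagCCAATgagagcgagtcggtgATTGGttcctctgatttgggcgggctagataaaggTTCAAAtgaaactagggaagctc
Nek2: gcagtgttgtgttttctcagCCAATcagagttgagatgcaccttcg
Cdk1: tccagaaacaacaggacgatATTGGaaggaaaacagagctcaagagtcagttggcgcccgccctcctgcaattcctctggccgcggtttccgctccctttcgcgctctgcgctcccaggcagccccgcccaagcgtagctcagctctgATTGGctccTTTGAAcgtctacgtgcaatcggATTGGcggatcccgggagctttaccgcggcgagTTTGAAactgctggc
Birc5 and Mad2l1 held neither element in the window and fell in at least 1 genotype, and Ccnb1 held 2 CCAAT boxes and no CHR form. Prc1 has another start in RefSeq, whose window held CCAAT and no CHR form. Only the CHR forms named above were searched, so a gene without them may hold another form.

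In the mutant channel 46.9% to 49.9% of probes cleared the background, and no spot was saturated. The probe for Cdk6 lay well above background in all 20 channels, with log2 ratios of -0.40 to 0.0024 in Cdk6-/- samples and 0.31 to 0.83 in Cdk6-K43M samples. Its place relative to the deletion is not known here, so it does not check the labels. The labels name no cell type beyond bone marrow. All 10 B-lineage markers examined were well above background in every single sample, against 6 of 12 granulocyte and monocyte markers, 5 of 9 T and NK cell markers and 3 of 7 erythroid and megakaryocyte markers. The arrays lay on 3 slides, each with both mutant genotypes.

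The first question was whether mitotic transcripts differ from wild type when CDK6 is missing. In Cdk6-/- colonies 4 of the 30 genes fell, Nek2, Birc5, Ccnb1 and Prc1, and none rose (limma, adjusted p under 0.05; 1 gene, Ndc80, was higher at an unadjusted p under 0.05). That is 13.3% called, all of them lower, beside 7.24% of all 22012 genes tested called in either direction, 3.85% lower and 3.38% higher. The fitted changes of the 30 genes ran from -0.77 (Nek2) to 0.21 (Ndc80), with a median of -0.13 (log2) and 22 of them below 0, beside a median of 0.0014 over all genes. Below the pool in all 4 single samples were 16 genes (53.3%), beside 20% of all genes, and 4 (13.3%) lay above it in all 4, beside 18.6%. Nek2 kept its call in 19 of 20 alternatives, and with 1 sample left out 1 to 5 genes fell, with 1 without Cdk6-/- sample 1 or 3 and 2 without Cdk6-/- sample 2 or 4 or Cdk6-K43M sample 1. Without slide 3, where 26 genes of the whole array passed, none of the 30 did.

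In Cdk6-K43M colonies 8 of the 30 genes fell, Nek2, Ccnb1, Mki67, Cenpe, Prc1, Top2a, Birc5 and Mad2l1, and Tpx2 rose (limma, adjusted p under 0.05). These were 26.7% called lower and 3.33% called higher, beside 10.3% and 9.78% of all genes, or 20.1% in either direction. Fitted changes ran from -0.97 (Nek2) to 0.27 (Tpx2), and 23 were below 0. Their median was -0.10 (log2), beside -0.0103 over all genes, but 0.10 when arrays were centred on their median in place of loess, a setting that moved the median of all genes to 0.112. It was -0.05 without Cdk6-K43M sample 2, and -0.04 with Agilent's processed signals, where the median of all genes was 0.04 and 6 of the 30 genes changed sign. In this genotype 12 genes (40%) lay below the pool in all 4 single samples, beside 21.5% of all genes, and 3 (10%) lay above it in all 4, beside 20%. Both mutant genotypes were set against the same wild-type pool, so what their values have in common can also come from that pool. With standard errors widened for the unknown spread of the pool, 1 gene fell in Cdk6-/- (Nek2) and 2 in Cdk6-K43M (Nek2 and Ccnb1), and none rose. Without Cdk6-K43M sample 1, 5 genes fell in Cdk6-K43M.

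**Figure D1:**
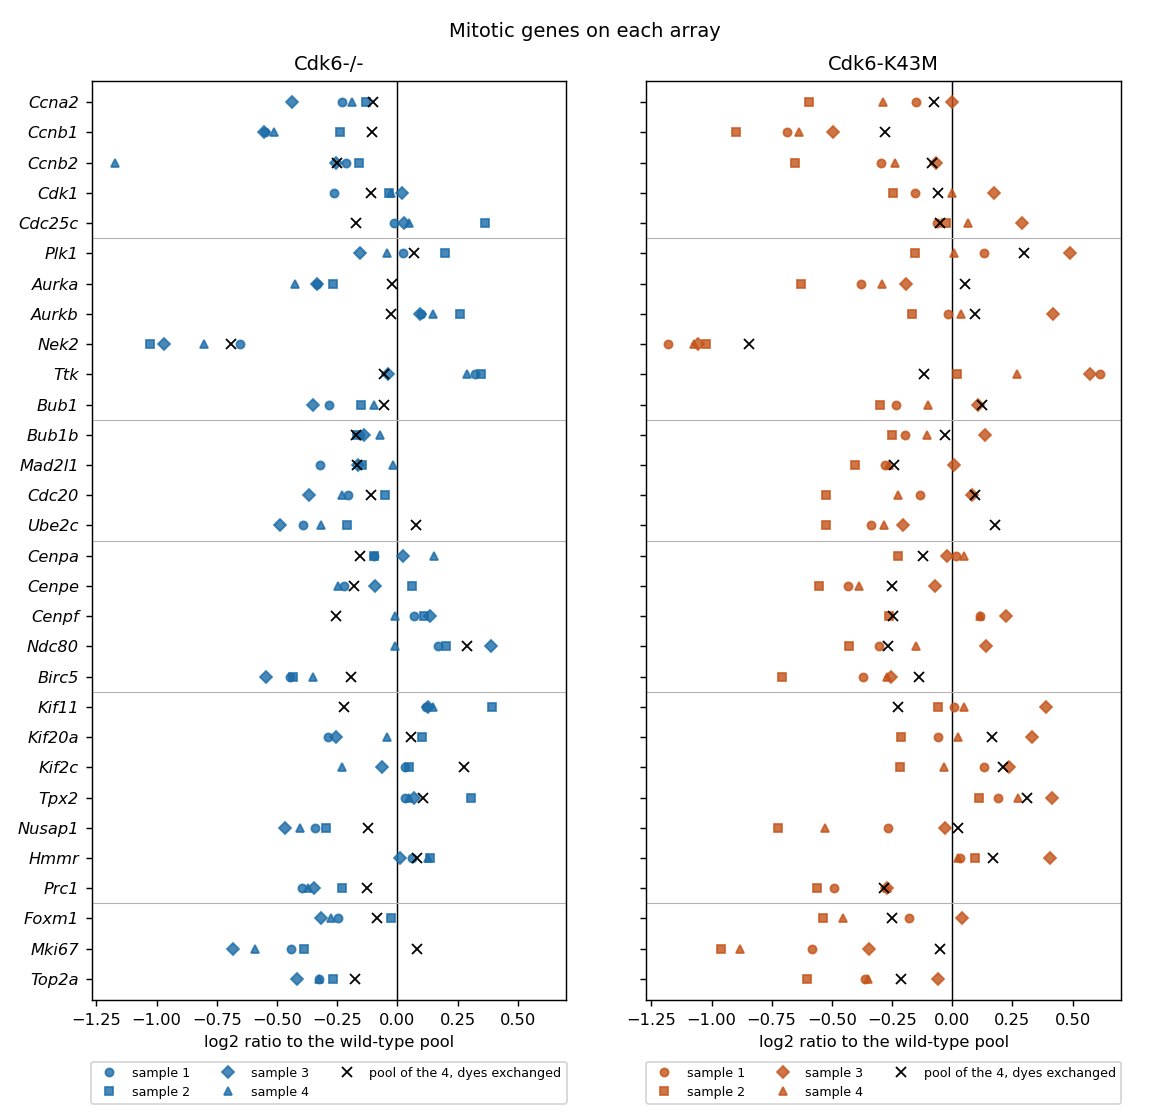
Log2 ratio to the wild-type pool (horizontal axis) of each of the 30 mitotic genes (rows, grouped by role) in the 4 single samples of a genotype (coloured symbols) and in the pool of the same 4 RNAs with dyes exchanged (crosses), for Cdk6-/- (left) and Cdk6-K43M (right). Nek2 lies between -1.18 and -0.65 on all 10 arrays, and in Cdk6-K43M the squares of sample 2 are the lowest and the diamonds of sample 3 the highest in most rows.

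The cyclin and CDK1 group holds the switch into mitosis. Ccnb1 encodes cyclin B1, the main partner of CDK1 at mitotic entry. Its log2 ratio was -0.55, -0.24, -0.55 and -0.51 in Cdk6-/- samples 1 to 4 and -0.11 in the pool with exchanged dyes. In Cdk6-K43M it was -0.69, -0.90, -0.50 and -0.64, and -0.28 in the exchanged pool. By this brightest probe all single samples of both genotypes were below the pool, with Cdk6-K43M sample 2 lowest and Cdk6-/- sample 2 highest. The fit, which gives the exchanged pools much weight because they alone settle the dye effect, put the change at -0.28 (SE 0.0735, limma adjusted p = 0.049) in Cdk6-/- and -0.49 (SE 0.0735, limma adjusted p = 0.00184) in Cdk6-K43M. Its 2 dimmer probes gave -0.30 and -0.29 in Cdk6-/- and -0.23 and -0.29 in Cdk6-K43M. They put Cdk6-K43M samples 3 and 4 slightly above the pool (0.05 and 0.04 by 1 probe, 0.05 and 0.08 by the other). The latter probe also put Cdk6-/- sample 4 above it, at 0.02. The Cdk6-/- call was kept in 4 of 20 alternatives, and it was lost without Cdk6-/- sample 1, 3 or 4 (adjusted p = 0.121, 0.0844 and 0.0848) and without Cdk6-K43M sample 1, 3 or 4 (adjusted p = 0.0718, 0.053 and 0.0556). With slide as a block its adjusted p was 0.0526.

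Cdk1, the kinase of the switch, had ratios of -0.26, -0.04, 0.02 and -0.03 in Cdk6-/- and -0.11 in the exchanged pool. The Cdk6-K43M samples had -0.15, -0.25, 0.17 and 0.0006, and -0.06 in the exchanged pool. The samples lay on both sides of the wild-type pool in both genotypes. The fitted changes of -0.09 (95% interval -0.25 to 0.07) and -0.06 (-0.22 to 0.10) did not pass. Ccna2, which encodes cyclin A2 of S and G2 phase, had fitted changes of -0.17 in both genotypes by its brightest probe and -0.36 and -0.44 by its other probe. Ccnb2, for cyclin B2, had -0.35 and -0.20, with 1 Cdk6-/- sample at -1.18 far below the rest. Cdc25c, the phosphatase that activates CDK1, had -0.0082 and -0.02. None of these 3 passed in either genotype, though with the mean of its probes Ccna2 passed as lower in Cdk6-K43M.

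Among the mitotic kinases Nek2 stood apart. It encodes a kinase that loosens the link between centrosomes before the spindle forms. Nek2 had log2 ratios of -0.65, -1.03, -0.97 and -0.80 in Cdk6-/- samples 1 to 4 and -0.69 in the exchanged pool. In Cdk6-K43M samples they were -1.18, -1.02, -1.06 and -1.07, and -0.85 in the exchanged pool. Every array was far below 0, and the ranges of the genotypes touched only through Cdk6-/- sample 2. The fitted decrease was -0.77 (SE 0.0637, limma adjusted p = 0.000194) in Cdk6-/- and -0.97 (SE 0.0637, limma adjusted p = 2.21e-05) in Cdk6-K43M. Within slides 1, 2 and 3 the mean was -0.65, -0.89 and -1.03 in Cdk6-/- and -1.18, -1.05 and -1.06 in Cdk6-K43M. Without slide 3, which leaves Cdk6-/- with 3 single samples and no exchanged pool, the Cdk6-/- change was -0.69 with an adjusted p of 0.179.

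Plk1, the kinase that drives mitotic entry and the recruitment of many spindle factors, had ratios of 0.02, 0.20, -0.15 and -0.04 in Cdk6-/- and 0.07 in the exchanged pool. In the Cdk6-K43M samples the ratios were 0.13, -0.16, 0.49 and 0.0090, and 0.30 in the exchanged pool. Samples of each genotype lay on both sides of the pool, and the fitted changes of 0.05 and 0.19 did not pass (limma adjusted p = 0.764 and 0.195). With median centring in place of loess, Plk1 passed as higher in Cdk6-K43M.

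Aurkb encodes the kinase of the chromosomal passenger complex. Its ratios were 0.10, 0.26, 0.09 and 0.15 in Cdk6-/- and -0.03 in the exchanged pool. The Cdk6-K43M values were -0.02, -0.17, 0.42 and 0.04, and 0.09 in the exchanged pool. All 4 Cdk6-/- samples were above the wild-type pool and the Cdk6-K43M samples lay on both sides. The fitted changes were 0.09 and 0.05 and did not pass. Aurka, the kinase of spindle poles, had fitted changes of -0.16 and -0.18, Bub1 -0.13 and -0.02, and Ttk, a checkpoint kinase, 0.06 and 0.15, and none passed.

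The checkpoint and anaphase-promoting complex group held 1 call. Mad2l1 encodes MAD2, which holds back anaphase until all chromosomes are attached. Its ratios were -0.32, -0.15, -0.17 and -0.02 in Cdk6-/- samples and -0.17 in the exchanged pool. In Cdk6-K43M they were -0.28, -0.41, 0.0057 and -0.26, and -0.24 in the exchanged pool. Cdk6-K43M sample 3 was level with the wild-type pool and the other single samples of both genotypes were below it. The decrease of 0.24 on the log2 scale passed in Cdk6-K43M (-0.24, SE 0.0704, limma adjusted p = 0.0386), and the Cdk6-/- value of -0.17 did not. This call was kept in 6 of 20 alternatives. It was lost without Cdk6-K43M sample 1, 2 or 4 (adjusted p = 0.0815, 0.0791 and 0.0656) and without Cdk6-/- sample 2 or 3 (0.0571 and 0.0507) and with slide as a block (0.0541), and the second probe gave -0.05. Bub1b, for the checkpoint protein BUBR1, had fitted changes of -0.14 and -0.08, Cdc20, the activator of the complex in mitosis, -0.13 and -0.08, and Ube2c, its ubiquitin-conjugating enzyme, -0.12 and -0.09. No call was made for these 3.

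Of the 5 centromere and kinetochore genes, Birc5 fell in both genotypes and Cenpe in Cdk6-K43M. Birc5 encodes survivin, a partner of AURKB in the chromosomal passenger complex. It had log2 ratios of -0.45, -0.43, -0.54 and -0.35 in Cdk6-/- and -0.19 in the exchanged pool. The Cdk6-K43M samples had -0.37, -0.71, -0.26 and -0.27, and -0.14 in the exchanged pool. All arrays were below 0 and the genotypes overlapped. Its fitted change was -0.32 (SE 0.0731, limma adjusted p = 0.0322) in Cdk6-/- and -0.27 (SE 0.0731, limma adjusted p = 0.0273) in Cdk6-K43M. A second, dimmer probe gave -0.22 in Cdk6-/- and -0.16 in Cdk6-K43M. With the mean of its probes Birc5 passed in neither (limma adjusted p = 0.0629 and 0.0718). The call was lost without Cdk6-/- sample 1, 2 or 3 in Cdk6-/- (adjusted p = 0.0792, 0.0647 and 0.0591) and without Cdk6-K43M sample 1 in Cdk6-K43M (0.0505). With slide as a block it was lost in both (0.0768 and 0.0814). With median centring in place of loess the Cdk6-K43M value was 0.0359 (adjusted p = 0.827).

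Cenpe encodes a kinesin that moves chromosomes to the spindle equator. Its ratios were -0.22, 0.06, -0.09 and -0.24 in Cdk6-/- and -0.18 in the exchanged pool. In the Cdk6-K43M samples the ratios were -0.43, -0.55, -0.07 and -0.39, and -0.25 in the exchanged pool. All Cdk6-K43M samples were below the wild-type pool, sample 3 least so. The fitted change was -0.33 (SE 0.0806, limma adjusted p = 0.0175) in Cdk6-K43M, and -0.13 in Cdk6-/-, which did not pass. The Cdk6-K43M call was kept in 17 of 20 alternatives. It was lost with processed signals (limma adjusted p = 0.0832), with widened standard errors (0.125) and with median centring (-0.11, adjusted p = 0.561). Ndc80, part of the complex that grips microtubules, had ratios of 0.17, 0.20, 0.39 and -0.01 in Cdk6-/- and 0.29 in the exchanged pool, against -0.31, -0.43, 0.14, -0.15 and -0.27 in Cdk6-K43M. It was above the wild-type pool in most Cdk6-/- arrays and below it in most Cdk6-K43M arrays, and its fitted changes of 0.21 and -0.20 did not pass (limma adjusted p = 0.191 and 0.164). Cenpa, the histone variant of centromeres, had -0.07 and -0.10, and Cenpf, a kinetochore protein of G2 phase, -0.08 and -0.10.

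The spindle, motor and midzone genes went both ways. Prc1 encodes the protein that bundles microtubules of the central spindle. Its ratios were -0.40, -0.23, -0.35 and -0.37 in Cdk6-/- and -0.13 in the exchanged pool, against -0.49, -0.56, -0.27, -0.27 and -0.28 in Cdk6-K43M. No array was above 0 and the genotypes overlapped. Its fitted change was -0.24 (SE 0.061, limma adjusted p = 0.0414) in Cdk6-/- and -0.33 (SE 0.061, limma adjusted p = 0.00532) in Cdk6-K43M. A second, dimmer probe gave -0.12 in Cdk6-/- and 0.12 in Cdk6-K43M, and with the mean of its probes Prc1 passed in neither. The Cdk6-/- call was lost without any 1 of the 4 Cdk6-/- samples (adjusted p = 0.106, 0.0592, 0.0678 and 0.0738) and without Cdk6-K43M sample 1 (0.0536), and with slide as a block (0.0509).

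Tpx2 encodes the spindle factor that activates the kinase AURKA. Its ratios were 0.03, 0.30, 0.07 and 0.05 in Cdk6-/- and 0.10 in the exchanged pool, against 0.19, 0.11, 0.42, 0.27 and 0.31 in Cdk6-K43M. All 10 arrays were above 0, with Cdk6-K43M sample 3 highest. The increase of 0.27 (SE 0.0641, limma adjusted p = 0.0159) passed in Cdk6-K43M, and the 0.12 of Cdk6-/- did not. Without slide 3 the Cdk6-K43M call was lost.

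Kif20a encodes a kinesin of the midzone. Its ratios were -0.29, 0.10, -0.25 and -0.04 in Cdk6-/- and 0.06 in the exchanged pool, against -0.06, -0.21, 0.33, 0.02 and 0.17 in Cdk6-K43M. Samples of both genotypes lay on both sides of the wild-type pool, and the fitted changes of -0.04 and 0.10 did not pass. Kif11, the motor that pushes spindle poles apart, had 0.00086 and -0.08, and Nusap1, which binds spindle microtubules, had -0.23 and -0.20. Kif2c, a microtubule depolymerase, had 0.09 and 0.14 by its brightest probe and 0.0046 and -0.03 by its other probe. Hmmr, another spindle protein, had 0.09 and 0.15 by its brightest probe, and its other 2 probes gave -0.11 and -0.16 in Cdk6-/- and -0.10 and -0.14 in Cdk6-K43M. These 4 genes passed in neither genotype.

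The transcription and chromosome group held Foxm1, Mki67 and Top2a. Foxm1 had log2 ratios of -0.25, -0.03, -0.32 and -0.28 in Cdk6-/- and -0.09 in the exchanged pool, against -0.18, -0.54, 0.04, -0.45 and -0.25 in Cdk6-K43M. All arrays but Cdk6-K43M sample 3 were below 0. Its fitted changes of -0.17 and -0.25 did not pass (limma adjusted p = 0.283 and 0.0783).

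Mki67 encodes Ki-67, the coat protein of mitotic chromosomes that marks cycling cells. Its ratios in Cdk6-/- were -0.44, -0.39, -0.68 and -0.59, but 0.08 in the exchanged pool. The Cdk6-K43M values were -0.58, -0.96, -0.35 and -0.88, but -0.05 in the exchanged pool. The single samples of both genotypes were thus well below the exchanged pools of the same RNA, and the fit gave Mki67 a dye effect of -0.31 (limma adjusted p = 0.0353). After this term the change was -0.22 (SE 0.0955, limma adjusted p = 0.193) in Cdk6-/- and -0.38 (SE 0.0955, limma adjusted p = 0.0205) in Cdk6-K43M. The Cdk6-K43M call was kept in 17 of 20 alternatives. It was lost with processed signals (limma adjusted p = 0.0886), with widened standard errors (0.138) and with median centring (-0.08, adjusted p = 0.698). From the single-sample arrays alone, without a dye term, Mki67 also passed as lower in Cdk6-/-.

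Top2a encodes the topoisomerase that untangles sister chromosomes. Its ratios were -0.33, -0.27, -0.42 and -0.32 in Cdk6-/- and -0.18 in the exchanged pool, against -0.36, -0.60, -0.06, -0.35 and -0.21 in Cdk6-K43M. Every array was below 0, and the Cdk6-/- samples lay inside the range of the Cdk6-K43M samples. The fitted change was -0.26 (SE 0.0747, limma adjusted p = 0.066) in Cdk6-/- and -0.28 (SE 0.0747, limma adjusted p = 0.0279) in Cdk6-K43M. The Cdk6-K43M call was lost without Cdk6-K43M sample 1 (adjusted p = 0.0583) and with slide as a block (0.0551), and with median centring in place of loess the value was 0.0065 (adjusted p = 0.972).

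**Figure D2:**
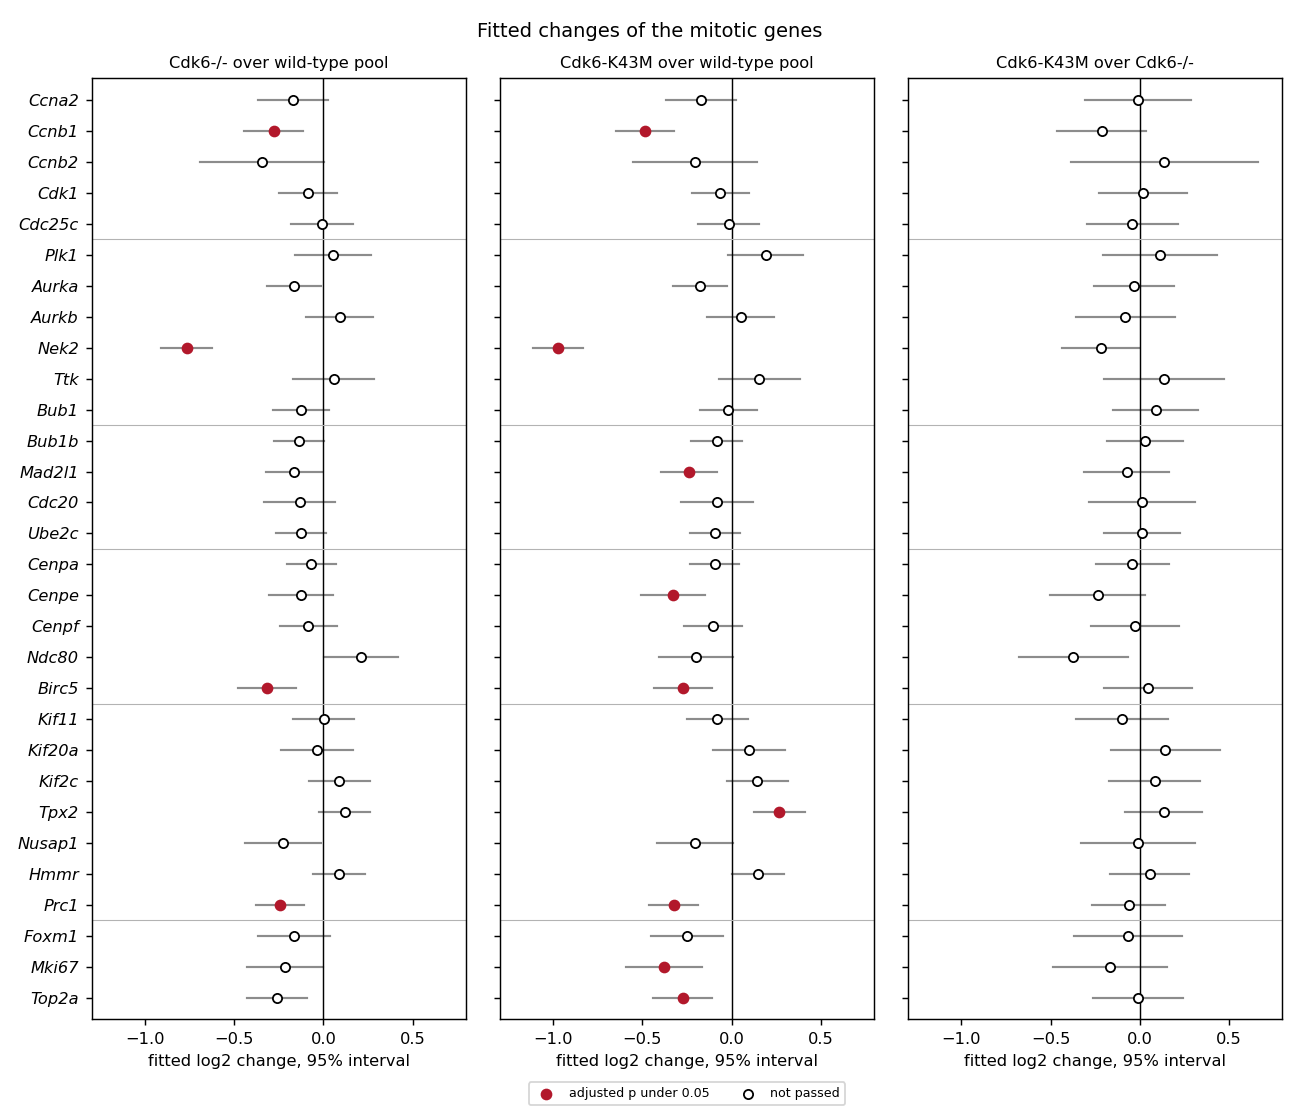
Fitted log2 change (points) with its 95% interval (bars) of the 30 mitotic genes, grouped by role, for Cdk6-/- over the wild-type pool, Cdk6-K43M over the wild-type pool and Cdk6-K43M over Cdk6-/-. Filled points passed limma's test at an adjusted p under 0.05: 4 genes on the left, 9 in the middle and none on the right.

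Over the 30 genes the dye effect was below 0, meaning that ratios read lower with the mutant RNA in Cy5, in 22 (73.3%), beside 54.3% of all genes, with a median of -0.07. It passed the test in 2 of them (6.67%), Mki67 and Ube2c (-0.24, limma adjusted p = 0.0202), beside 6.52% of all genes. The exchanged pool lay above all 4 single samples in 11 genes in Cdk6-/- and in 9 in Cdk6-K43M. The same count was not made over all genes, so whether these numbers are unusual cannot be said. From the single-sample arrays without a dye term 9 genes fell in Cdk6-/- and 11 in Cdk6-K43M, in place of 4 and 8. That setting called more of all genes too, 14.9% in Cdk6-/- in place of 7.24% and 25% in Cdk6-K43M in place of 20.1%.

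The single samples of a genotype differed in the mitotic genes as a set. Of the 4 Cdk6-K43M samples, sample 2 was the lowest in 27 of the 30 genes (90%), beside 26.4% of all genes, and sample 3 was the highest in 26 (86.7%), beside 24.9%. Their medians over the 30 genes were -0.42 and 0.06 (log2), with -0.19 in sample 1 and -0.19 in sample 4. Among the Cdk6-/- samples, sample 2 was the highest in 21 genes (70%), beside 20.9% of all genes, and the medians of samples 1 to 4 were -0.22, -0.07, -0.21 and -0.14. The SD of the median over the 4 samples was 0.069 in Cdk6-/- and 0.196 in Cdk6-K43M. Nek2 did not follow this order, since Cdk6-K43M sample 2 was its highest and Cdk6-/- sample 2 its lowest. Cdk6-/- sample 2 and Cdk6-K43M sample 3, the highest of their genotypes, both lay on slide 3, and the part of the slide in this was not tested. Within slides 1, 2 and 3 the median of the 30 genes was -0.22, -0.16 and -0.07 in Cdk6-/- and -0.19, -0.31 and 0.06 in Cdk6-K43M. Without Cdk6-K43M samples 2 and 3, 8 genes again fell and 1 rose in Cdk6-K43M, and the median was -0.11.

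**Figure D3:**
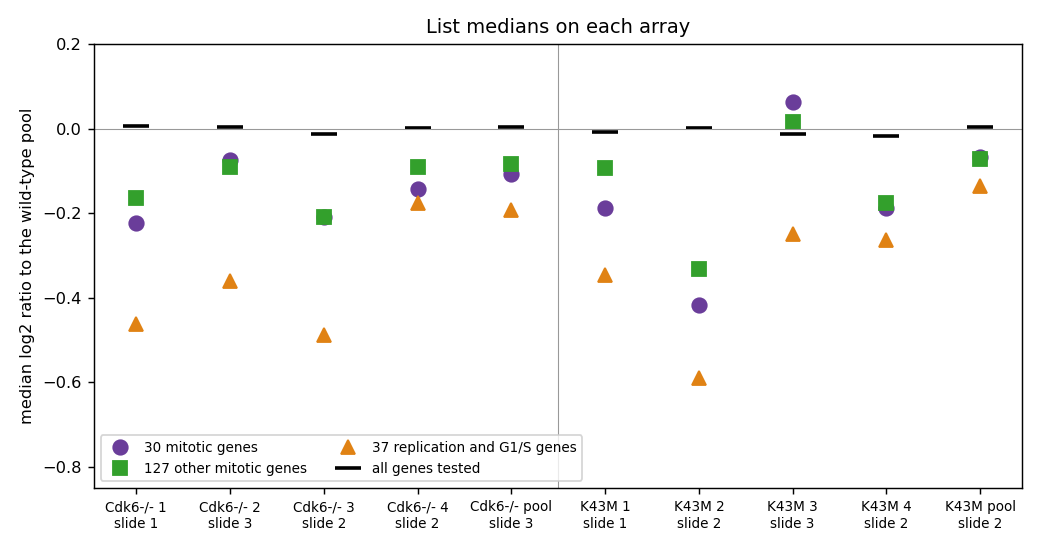
Median log2 ratio to the wild-type pool on each of the 10 arrays (horizontal axis, with the slide) for the 30 mitotic genes, 127 other mitotic genes, 37 replication and G1/S genes and all genes tested. The mitotic medians run from -0.42 in Cdk6-K43M sample 2 to 0.06 in Cdk6-K43M sample 3, and the replication genes lie below the mitotic genes on every array; arrays were loess normalized, and with median centring the fitted Cdk6-K43M median of the mitotic genes was 0.10.

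Of 128 other mitotic genes 127 could be tested, and Ccnb3 was not above background. In Cdk6-/- 14 fell (11%) and none rose (1 was higher at an unadjusted p under 0.05), with a median fitted change of -0.11 (log2), beside the 3.85% of all genes called lower. The smallest p-values there were those of Psrc1, Wee1, Ccnf, Arhgap11a, Cdca5 and Gtse1. Psrc1, a spindle protein, had ratios of -1.22, -0.45, -0.996 and -0.67 in the single samples and -0.51 in the exchanged pool, all below 0, and a fitted change of -0.65 (SE 0.13, limma adjusted p = 0.0194). Wee1, the kinase that restrains CDK1, fell by 0.32, and Ccnf, for cyclin F, fell by 0.30. Cdca5, which encodes sororin, the protector of sister chromatid cohesion, fell by 0.33, as did Gtse1, and Arhgap11a fell by 0.22. The 14 became 1 without Cdk6-/- sample 1, 4 without sample 2, 7 without sample 3, 8 without Cdk6-K43M sample 1 and 24 without Cdk6-K43M sample 2. They became 0 with widened standard errors and without slide 3, 1 with processed signals and with median centring, 2 with slide as a block, 5 without empirical Bayes moderation, and 29 from the single-sample arrays alone. All 6 genes named here lost the call with slide as a block and without slide 3.

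In Cdk6-K43M 28 of the 127 fell (22%) and 3 rose (2.36%), with a median of -0.11, beside 10.3% and 9.78% of all genes. The 6 smallest p-values belonged to Cdca3, Ncapd2, Cdca5, Pkmyt1, Incenp and, as the only increase among them, Cdc16. Cdca3, a trigger of mitotic entry, had ratios of -0.64, -1.05, -0.63 and -0.89 in the single samples and -0.77 in the exchanged pool, and fell by 0.80 (SE 0.074, limma adjusted p = 0.000166). Pkmyt1, which like WEE1 restrains CDK1, fell by 0.68, Cdca5 by 0.60, Ncapd2, a condensin subunit, by 0.54, and Incenp, the scaffold of the chromosomal passenger complex, by 0.44. Cdc16, a subunit of the anaphase-promoting complex, rose by 0.34 (SE 0.0475, limma adjusted p = 0.00137). Cdc16, Cdca3, Cdca5 and Pkmyt1 passed in all 20 alternatives. With median centring in place of loess, 3 of the 127 fell and 25 rose in Cdk6-K43M. In that setting 28.9% of all genes passed in either direction, and the median of all genes was 0.112.

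By role, the decreases in Cdk6-K43M among the other mitotic genes numbered 4 of 10 in the cyclin and CDK1 group, 1 of 8 kinases and 3 of 22 checkpoint and anaphase-promoting complex genes. They numbered 5 of 35 kinetochore and centromere genes, 7 of 27 spindle, motor and midzone genes and 8 of 25 transcription and chromosome genes. In Cdk6-/- the counts were 2, 1, 3, 0, 5 and 3 in the same order. The Cdk6-K43M shares were 40%, 12.5%, 13.6%, 14.3%, 25.9% and 32%, beside 10.3% of all genes called lower. The Cdk6-/- shares were 20%, 12.5%, 13.6%, 0%, 18.5% and 12%, beside 3.85% of all genes. Differences between roles were not tested. The 37 genes of DNA replication and the G1/S step, listed for comparison, had 18 decreases and no increase in each genotype (48.6%), with medians of -0.29 in Cdk6-/- and -0.24 in Cdk6-K43M. The Cdk6-/- count was 4, 7 and 9 without Cdk6-/- samples 1, 2 and 3, and 13 to 21 without another sample. It was 0 with widened standard errors and without slide 3, 4 with median centring, 5 with processed signals and without empirical Bayes moderation, and 7 with slide as a block. The Cdk6-K43M count was 16 to 19 with 1 sample left out and 13 with slide as a block. It was 2 with median centring and 8 with processed signals, each with 1 increase, 4 with widened standard errors, 6 without slide 3 and 11 without Cdk6-K43M samples 2 and 3. Their median was below that of the mitotic genes on all 10 arrays. No replication gene was higher in either genotype at an unadjusted p under 0.05.

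Markers of granulocytes and monocytes also differed from the wild-type pool, which both genotypes share. None of these markers passed between Cdk6-K43M and Cdk6-/-. Of 11 that could be tested (Ltf was not above background), 7 fell in Cdk6-/- (63.6%) and 5 in Cdk6-K43M (45.5%). The medians of these markers were -1.35 to -0.58 over the Cdk6-/- samples and -0.74 to -0.03 over the Cdk6-K43M samples. In all 4 Cdk6-/- samples the signals of S100a8, Ngp, Camp and Mpo did not clear the background. Of 5 T and NK cell markers, Cd2 fell in both genotypes, Thy1 rose in both and Lck rose in Cdk6-/-, over a range of -1.19 to 2.14 (log2) in Cdk6-/- and -1.32 to 2.79 in Cdk6-K43M. Of the 10 B-lineage markers, 1 rose in Cdk6-/- (10%), and 2 fell (20%) and 2 rose (20%) in Cdk6-K43M. Of all genes, 3.85% were called lower and 3.38% higher in Cdk6-/-, and 10.3% and 9.78% in Cdk6-K43M. Gfi1b, 1 of 4 erythroid and megakaryocyte markers, rose in Cdk6-/-. The part of these cells in the mitotic values was not tested.

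The last comparison asked whether the kinase-dead protein differs from its absence. No mitotic gene passed between Cdk6-K43M and Cdk6-/- (limma, 8 single-sample arrays), while 113 of all genes (0.513%) did. With 1 sample left out, the count of all genes ran from 36 without Cdk6-/- sample 1 to 77 without Cdk6-K43M sample 2, with 61, 66 and 53 without Cdk6-/- samples 2, 3 and 4 and 49, 52 and 59 without Cdk6-K43M samples 1, 3 and 4. At an unadjusted p under 0.05 there were 2, Ndc80 and Nek2. The single samples of the genotypes overlapped in all 30 genes, whereas they did not overlap in 8.14% of all genes. The median difference of Cdk6-K43M over Cdk6-/- was -0.01 (log2), beside -0.0095 over all genes, and 0.15 against 0.0699 with median centring in place of loess. It was 0.08 without Cdk6-K43M sample 2, 0.02 without Cdk6-/- sample 2 and -0.09 without Cdk6-K43M sample 3, and 0.04 with processed signals.

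Ndc80 had the lowest difference, -0.37 (95% interval -0.68 to -0.07, limma adjusted p = 0.275), and Cdk6-K43M sample 3 lay inside the range of the Cdk6-/- samples. For Nek2 the difference was -0.22 (95% interval -0.43 to -0.0036, limma adjusted p = 0.347). Kif20a had the highest difference, 0.14 (SE 0.134, limma adjusted p = 0.668). Genes that fell in Cdk6-K43M and not in Cdk6-/- did not differ between them beyond this error: the difference was -0.17 for Mki67 (adjusted p = 0.627), -0.24 for Cenpe (0.399), -0.07 for Mad2l1 (0.797) and -0.0099 for Top2a (0.977). For Tpx2 it was 0.13 (0.553) and for Ccnb1 -0.21 (0.411), all by limma. The median SE of such a difference over all genes was 0.106, so these data do not show that the genotypes act alike on these genes.

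**Figure D4:**
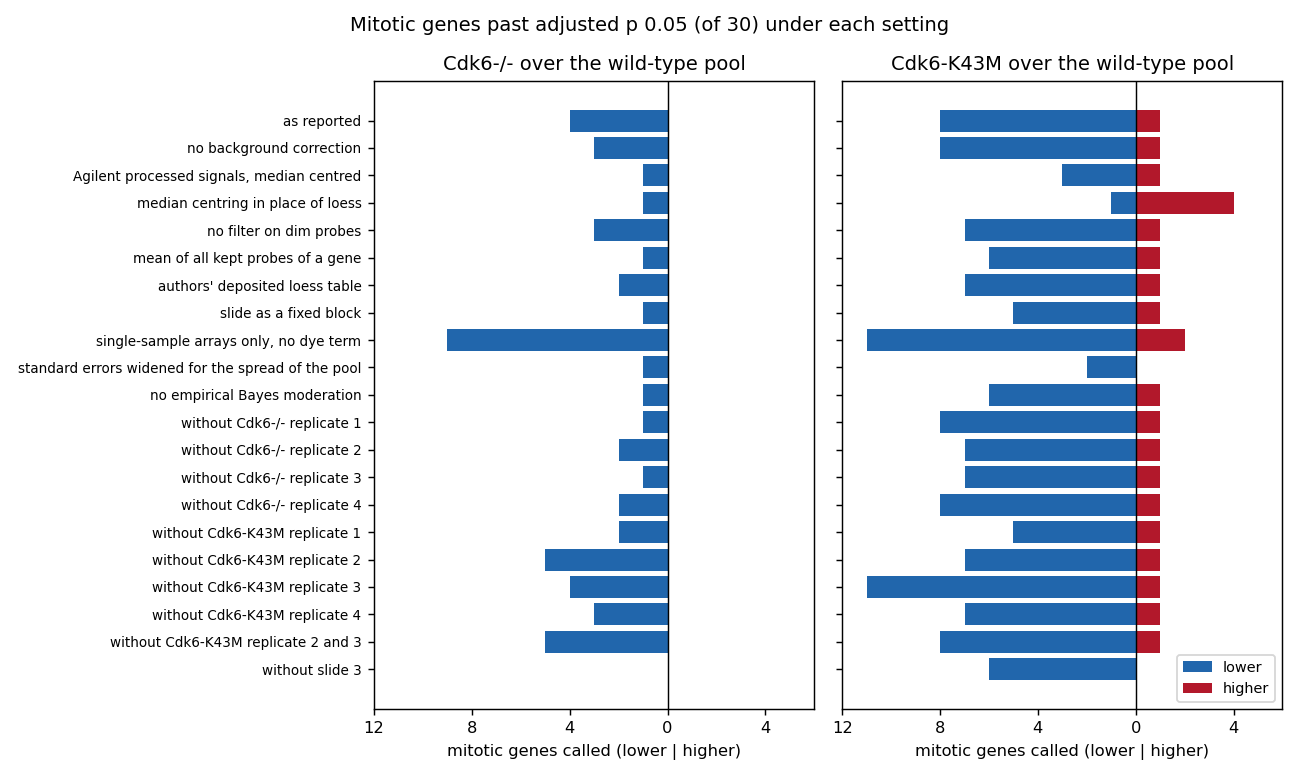
Number of the 30 mitotic genes past limma's adjusted p of 0.05, called lower (bars to the left) or higher (bars to the right), as reported and under each alternative setting, for Cdk6-/- (left) and Cdk6-K43M (right). The count of decreases runs from 0 to 9 in Cdk6-/- and from 1 to 11 in Cdk6-K43M, and with median centring in place of loess 4 genes were higher and 1 lower in Cdk6-K43M. With that centring 28.9% of all genes passed in Cdk6-K43M.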

How the data were processed

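The 10 two-colour Agilent arrays (design 074809) were read with Feature Extraction 11.5.1.1, which gave spot and background intensities, per the file headers. The same software's processed signal intensities have the background subtracted and the dyes normalized, per the file headers. The authors also deposited log2 values named as loess normalized, whose background correction the sources used here do not give. In that table, 68 cells held a date and were set to missing, its column medians were -0.0112 to 0.00345, and its columns correlated with the recomputed ratios at 0.916 to 0.965, across probes.

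Median spot intensities were corrected by normexp (offset 50) and normalized by loess within arrays in limma 3.58.1 (R 4.3.3, package data.table in version 1.17.8), with control spots at weight 0. Values of outlier spots (1719) were set to missing. Probes were kept if well above background in at least 3 of 4 single samples of a genotype or at least 5 of 10 wild-type channels (28182 of 56605). Symbols came from RefSeq GRCm38.p6 and matched 58.3% of probes. The brightest probe stood for a gene. Linear models with empirical Bayes moderation were fitted to all 10 arrays, with genotype coefficients, reversed signs for exchanged arrays and a dye term. Exchanged pools repeat RNA of the same samples, so the residual spread may be too small. The mutant genotypes were compared on the 8 single-sample arrays. Benjamini-Hochberg adjustment of p-values ran over all 22012 genes, at a threshold of 0.05. The fit was tested on simulated data. Of the calls made there, 10.5% were false in Cdk6-/-, 4% in Cdk6-K43M and 7.92% between the genotypes. Of 1.2-fold changes 17.9%, 13.4% and 1.49% were recovered in the same order. Of 2-fold changes 89.4%, 90.9% and 80.3% were recovered. The number of arrays limits the precision.

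Members and lists were chosen with earlier results of these data known. Values were printed for every array for genes past the threshold in any comparison, for Ccnb1, Cdk1, Plk1, Aurkb, Foxm1, Mki67 and Top2a, and for the highest and lowest gene of each comparison. Other mitotic genes were named by the 6 smallest p-values. Protein motifs were not analysed here.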

Additional observations from a re-analysis of the deposited data

Results flagged for a closer look

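Dixon's criterion was applied to 66 groups of 4 single samples (30 mitotic genes and the list medians in each genotype). In 6 groups a sample stood apart from the other 3. Chance gives about 1 in 20 when groups are independent. These groups share the same samples, and no such share over all genes is given, so whether 6 is unusual cannot be said. All 6 were Cdk6-/- values, and 4 of them belonged to sample 2. Ccnb1 was at -0.24 (log2, mutant over the wild-type pool) in Cdk6-/- sample 2, with the other samples at -0.55 to -0.51. Ccnb2 was at -1.18 in sample 4, with the others at -0.25 to -0.16. Cdc25c was at 0.36 in sample 2, with the others at -0.01 to 0.05. Ttk was at -0.04 in sample 3, with the others at 0.29 to 0.35. Kif11 was at 0.39 in sample 2, with the others at 0.12 to 0.15. Tpx2 was at 0.30 in sample 2, with the others at 0.03 to 0.07.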

How the results depend on the processing

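Precision was limited by 4 samples a genotype and 1 wild-type pool (median SE 0.0728 against wild type). The 4 decreases in Cdk6-/- became 1 with Agilent's processed signals, with the mean of a gene's probes, with median centring, without empirical Bayes moderation, with slide as a block and with widened standard errors (in each case Nek2), 2 in the deposited table, 9 without the exchanged arrays and dye term, and 0 without slide 3, and were 1 to 5 with 1 sample left out (1 without Cdk6-/- sample 1 or 3, and 2 without Cdk6-/- sample 2 or 4 or Cdk6-K43M sample 1). The 8 decreases in Cdk6-K43M became 3 with processed signals, 1 with median centring, 5 with slide as a block (Birc5, Mad2l1 and Top2a lost) and 2 with widened standard errors, and were 5 (without Cdk6-K43M sample 1) to 11 (without sample 3) with 1 sample left out. The 1 increase became 4 with median centring (Hmmr, Kif2c, Plk1 and Tpx2), 2 without exchanged arrays (Tpx2 and Ttk), and 0 with widened standard errors and without slide 3. The median of the 30 genes was -0.2247 within slide 1 in Cdk6-/-, -0.3112 within slide 2 in Cdk6-K43M, and with median centring 0.1028 in Cdk6-K43M and 0.1542 between the genotypes, where the medians of all genes were 0.112 and 0.0699. With median centring Birc5 (0.0359) and Top2a (0.0065) changed sign in Cdk6-K43M. The causes were not tested. Over 500 alternative values of single named genes, 379 kept direction and side of the threshold, 119 kept the direction and lost the call and 2 changed sign.

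Whether replicate numbers pair the samples of the genotypes cannot be told from these values. The correlations of same-numbered samples across genes were 0.0838, -0.066, 0.228 and 0.139. Those of samples with different numbers ran from -0.246 to 0.201. With the replicate block 0 mitotic genes passed between the genotypes, as without it, their median was -0.0111, and 37 of all genes passed in place of 113. Of all genes, 1593 passed in Cdk6-/-, but 822 with slide as a block, 130 with widened standard errors, 3290 without exchanged arrays, 26 without slide 3, 807 with processed signals, 802 with median centring, 897 without moderation and 612 to 1931 with 1 sample left out. In Cdk6-K43M 4426 passed, but 1270 with widened standard errors, 2867 without samples 2 and 3 and 1487 without slide 3. More passed in this genotype without exchanged arrays (5511) and with median centring (6368). Between the genotypes 560 passed with all 10 arrays, 29 without moderation, 33 with slide as a block, 65 with processed signals, 17 without slide 3 and 36 to 77 with 1 sample left out. Leaving out slide 3 or Cdk6-K43M samples 2 and 3 together was chosen after seeing the data.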

Other observations

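Of the 22 genes of the spindle checkpoint and the anaphase-promoting complex, the ubiquitin ligase that ends mitosis, outside the list of 30, 3 fell and none rose in Cdk6-/-, and 3 fell and 2 rose in Cdk6-K43M. Called lower were 13.6% in each genotype, beside 3.85% of all genes in Cdk6-/- and 10.3% in Cdk6-K43M. Called higher in Cdk6-K43M were 9.09%, beside 9.78% of all genes, so both Cdk6-K43M shares lay near those of all genes. Anapc5 and Anapc11 fell in both genotypes, Anapc5 by 0.29 in Cdk6-/- and 0.23 in Cdk6-K43M and Anapc11 by 0.36 in each (limma adjusted p of 0.0395, 0.04998, 0.0397 and 0.0191). Anapc4 rose in Cdk6-K43M by 0.29 (limma adjusted p = 0.00249), as did Cdc16. Bub3, a checkpoint protein, fell by 0.18 in Cdk6-/- and 0.28 in Cdk6-K43M (limma adjusted p = 0.0397 and 0.00256). The other 19 did not pass in Cdk6-/-, nor the other 17 in Cdk6-K43M, and the genes given here were picked out after their values were seen. Both genotypes share the wild-type pool.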
